A study of Mus musculus with 6 samples.

Results

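Histone-modifying enzymes add acetyl or methyl groups to the tails of histones, or take them off, and their balance sets how open chromatin is to transcription. Acetyltransferases place acetyl groups on lysines, while zinc-dependent deacetylases and the NAD-dependent sirtuins remove them. Lysine methyltransferases with a SET domain place methyl groups that mark promoters, gene bodies or silent chromatin according to the lysine, demethylases remove them, and arginine methyltransferases act on arginine. In the liver these enzymes take part in hepatocyte identity, lipid metabolism and the response to partial hepatectomy. Several of the enzymes also act on proteins other than histones, and some sirtuins work in mitochondria.

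The enzymes were taken as the genes whose array symbols carry the family names Kdm, Hdac, Sirt, Kat, Setd, Setdb, Prmt, Ezh, Ehmt, Suv39 or Suv420. The family name Kmt was searched as well and matched no symbol of the array, which uses older names such as Setd8. This gave 69 genes of the 24239 with a symbol on the array, measured by 108 probes. They were 19 lysine methyltransferases, 8 arginine methyltransferases, 17 lysine demethylases, 7 acetyltransferases, 11 zinc-dependent deacetylases and 7 sirtuins. The members were chosen by name and not by their measured values, though earlier results of these data were known.

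Liver RNA came from B6C3F1 male mice 7 weeks of age, a hybrid strain, for which the labels name no genetic modification. The 3 control mice received corn oil by mouth and the 3 TCE mice received trichloroethylene, an industrial solvent, in corn oil at 1000 mg/kg b.w. per day, both for 5 days. Each mouse was measured on an array of its own with a single dye. Values are quantile-normalized log2 signals, so that a difference of 1 is a 2-fold change, and a probe was called detected if, in 1 group or both, each of the 3 arrays read it well above background.

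Of each array's probes, 23537 to 24965 were well above background and 0 spots were saturated, and arrays correlated at 0.978 or more within a group. All 10 hepatocyte markers examined were detected. Their summed signal was 1818800 to 1844500 in control mice and 1693900 to 1781600 in TCE mice, without overlap. None of the 10 passed an adjusted p of 0.05 by limma. An unadjusted limma p of 0.05 or less was found in 3 of the 10, beside 19.1% of all detected genes. Of these 3, Apoa1 and Apob were lower in TCE mice, with log2 fold changes of -0.31 and -0.37, and Tat was higher at 0.36. The array of control mouse 1 came from a different slide than the 5 others, which lay on 1 slide. In bulk liver, fewer cells of a type cannot be told apart from less RNA per cell.

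Among the enzymes 64 genes were detected, each with its probe well above background on all 6 arrays. The genes not detected were Hdac2, Hdac9, Kdm4d, Kdm5d and Prmt8. Kdm5d, the Y-linked H3K4 demethylase, was well above background on 2 arrays, 1 of each group, and the other 4 on no array. A gene with several detected probes is represented by the one with the highest mean signal.

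None of the 64 enzyme genes passed a Benjamini-Hochberg adjusted p of 0.05 by limma (0 higher and 0 lower in TCE mice). Over all 13284 detected genes 1.80% were called higher and 0.587% lower at this threshold. At an unadjusted limma p of 0.05 or less, 5 enzyme genes were higher in TCE mice, or 7.81% beside 12.0% of all genes, and 4 were lower, or 6.25% beside 7.11%. The groups did not overlap, with every TCE mouse above every control mouse, in 11 enzyme genes (17.2%, beside 17.1% of all genes), and with every TCE mouse below in 6 (9.38%, beside 10.8%). These shares were near or under those of all genes, as the bars of enzyme genes beside all genes show.

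**Figure D1:**
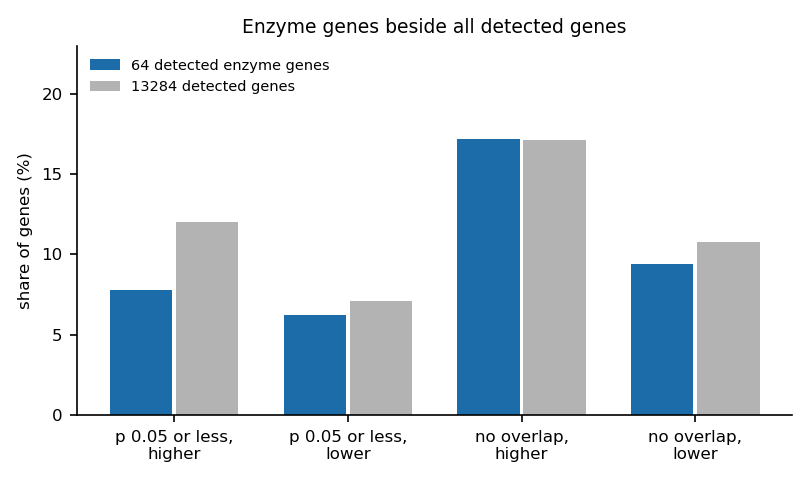
Share of genes (%) by 4 criteria in the 64 detected enzyme genes (blue) and in all 13284 detected genes (grey): an unadjusted limma p of 0.05 or less, and groups of 3 mice that do not overlap, each split into higher and lower in TCE mice. The largest gap is at p of 0.05 or less and higher, with 7.81% of enzyme genes and 12.0% of all genes.

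The differences were small as well. The 64 log2 fold changes had a median of 0.00, with 32 above 0 and 32 below, beside a median of 0.02 over all genes, of which 53.1% were higher. The median size of the change, without its sign, was 0.15 for the enzymes and 0.20 for all genes. In 46 of the 64 it was under 0.25, and in 4, Ehmt1, Prmt1, Setd4 and Setd8, it was over 0.5. For 58 of the 64 (90.6%) the 95% interval of the difference lay within a 2-fold change either way, beside 80.3% of all genes. The intervals of Prmt1, Ehmt1, Setd4, Suv39h1, Kdm5a and Hdac5 reached further. The spread between mice of a group was also low, with a median SD of 0.13 in control and 0.16 in TCE mice, beside 0.15 and 0.19 for all genes. The arrays number 3 a group, which limits the precision, and a gene that missed the threshold is not thereby shown to be equal in the groups.

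**Figure D2:**
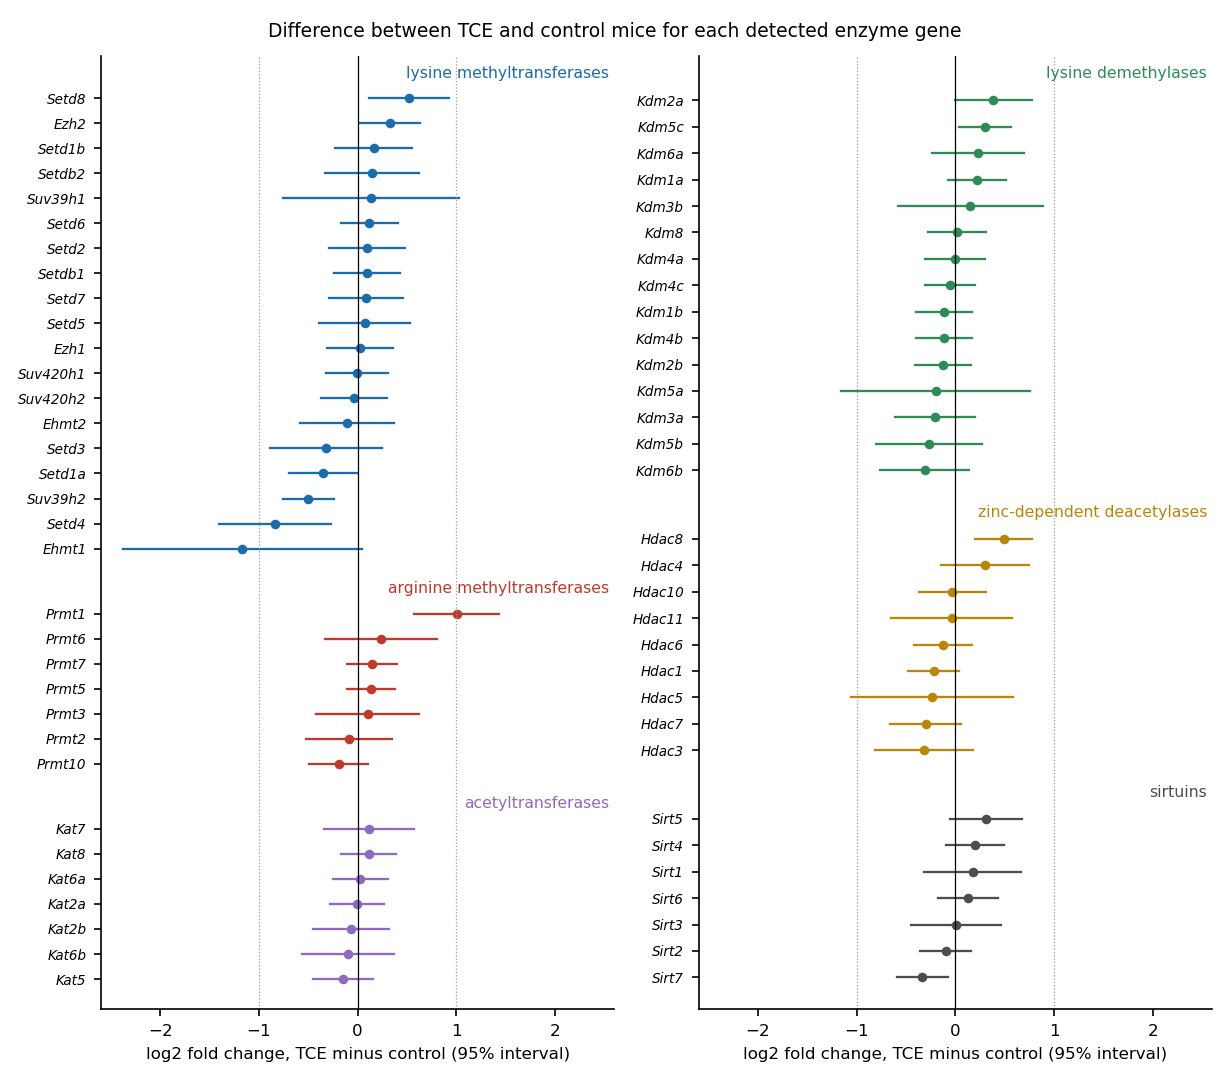
Log2 fold change of TCE minus control (points) with the 95% interval from limma (lines) for the 64 detected enzyme genes, grouped by class and sorted within it; dotted lines mark a 2-fold change. Most points lie close to 0, and Prmt1 on the right and Ehmt1 and Setd4 on the left lie farthest out.

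Prmt1, which makes most of the asymmetric dimethylarginine in cells and methylates arginine 3 of histone H4, had the smallest p of the 64. Its log2 signal was 9.58, 9.70 and 9.83 in control mice 1, 2 and 3, and 10.90, 10.35 and 10.87 in TCE mice 1, 2 and 3. The groups did not overlap, and TCE mouse 2 was the lowest of the TCE mice. The log2 fold change was 1.00 with an SE of 0.18 (2.00-fold higher), and the adjusted p by limma was 0.0542. The other Prmt1 probe read 7.61, 7.45 and 7.72 in control and 9.07, 8.00 and 8.84 in TCE mice, which is a log2 fold change of 1.04 with an adjusted p of 0.135. Both probes thus gave the same direction, and in both TCE mouse 2 stood between the control mice and the other TCE mice.

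The adjusted p of Prmt1 lay at the edge of the threshold. Over 15 other ways of processing or testing the arrays its log2 fold change was 0.91 to 1.18 and its adjusted p 0.0305 to 0.188, with 5 of them at 0.05 or less. Without TCE mouse 2 the log2 fold change was 1.18 and the adjusted p 0.0305, a call. Within the slide that 5 arrays shared, without control mouse 1, it was 0.94 with an adjusted p of 0.148. Proliferation genes were higher in the TCE mice as well, in an order of mice that differed by list. The mean log2 shift from the control mean is given for TCE mice 1, 2 and 3, over all detected genes of a list. It was 2.41, 2.72 and 2.86 for the G2/M list, with TCE mouse 1 lowest. For the S phase list it was 0.81, 0.36 and 0.57, with TCE mouse 2 lowest, as in Prmt1. Of the 25 genes of the G2/M list 16 were detected, and 10 of these passed the filter only through the TCE arrays, so that they had to be higher. The 6 detected in both groups were higher and past the adjusted threshold. The summed signal of all 16 was 941 to 1049 in control and 4389 to 5650 in TCE mice. This sum includes the 10, so its rise was in part set by the filter. The 20 S phase genes detected in both groups were higher, 0 past the adjusted threshold and 10 at an unadjusted limma p of 0.05 or less. A further 2 passed the filter through the TCE arrays alone. With these 2 included, the sums were 11721 to 12698 in control and 14639 to 18607 in TCE mice. The PPARalpha targets were listed as genes known to rise with this exposure. The 13 detected in both groups were higher, 11 past the threshold, and 2 more passed the filter through the TCE arrays alone. With these 2 included, the sums were 291730 to 308540 in control and 1166100 to 1438700 in TCE mice. The part of these genes in the difference of Prmt1 was not tested.

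The probe of Prmt1 lies on mouse chromosome 7 at chr7:52232148-52232207 of mm9, the build of the array annotation, on the minus strand. The 250 bases before the Prmt1 start are shown because Prmt1 is the gene closest to the threshold. They are from the RefSeq table of promoters on GRCm38.p6, chr7:44986421-44986670 on the minus strand, written 5′ to 3′ with each CpG in capitals.

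Prmt1: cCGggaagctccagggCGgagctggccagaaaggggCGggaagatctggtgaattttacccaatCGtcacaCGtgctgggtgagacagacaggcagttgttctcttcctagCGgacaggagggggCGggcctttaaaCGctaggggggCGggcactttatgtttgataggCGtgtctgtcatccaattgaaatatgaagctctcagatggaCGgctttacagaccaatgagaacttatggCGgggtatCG

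This stretch holds 13 CpG. The table held a promoter of 300 bases, 250 before and 50 after the gene start, for 59 of the 69 enzyme genes, and not for Kat6a, Kdm2a, Kdm6b, Kdm4b, Kdm3b, Kdm5a, Setd1b, Hdac1, Hdac3 or Hdac10. Promoters with over 50% G and C and a ratio of observed to expected CpG over 0.6 numbered 48 of the 59 (81.4%), beside 63.4% of the 10077 promoters of detected genes and 33.3% of all 32851 promoters. CpG-rich promoters were common among the genes whose groups did not overlap, both higher (8 of 11) and lower (5 of 5), and among those that overlapped (32 of 38). This describes the sequences, and the arrays measured no methylation.

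The letters that E2F factors of the S phase program are known to bind were searched in the same promoters as TTTCCCGC, TTTCGCGC, TTTGCCGC and TTTGGCGC on both strands. They occurred in 4 of the 59 enzyme promoters (6.78%), beside 3.87% of those of detected genes, 2.26% of all promoters and 7 of 19 promoters of the S phase list (36.8%). Windows of 30 bases are shown because Ezh2 and Sirt4 are among the 11 genes higher without overlap and Kat2a and Suv420h2 are not. They are on GRCm38.p6 at chr6:47595009-47595038 (minus strand) for Ezh2, chr5:115484288-115484317 (minus) for Sirt4, chr11:100712508-100712537 (minus) for Kat2a and chr7:4740011-4740040 (plus) for Suv420h2, which is now named Kmt5c. The matching letters are in capitals.

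Ezh2: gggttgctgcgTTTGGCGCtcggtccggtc
Sirt4: ccggctgaaggTTTCCCGCtgagcattctt
Kat2a: aaggatgggaaGCGGCAAAggaagactacg
Suv420h2: ggccagaagagGCGGGAAAaagagagcaat

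The match of Ezh2 begins at base 4 after the gene start, that of Sirt4 at base 9 before it, that of Kat2a at base 59 before and that of Suv420h2 at base 105 before. The promoters of Prmt1 and Setd8 held none of these letters in the 300 bases.

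Among the other arginine methyltransferases, Prmt7, which makes monomethylarginine, and Prmt5, the main enzyme of symmetric dimethylation, also lay above the controls in every TCE mouse, with small differences. Prmt7 read 11.63, 11.70 and 11.71 in control and 11.77, 11.83 and 11.88 in TCE mice, and the log2 fold change was 0.15 with an adjusted p of 0.513. Prmt5 differed by 0.14 with an adjusted p of 0.543. Prmt10, now named Prmt9, was the farthest below 0 in the class at -0.19, and its groups overlapped. Prmt6 was represented by a probe with a log2 fold change of 0.24, and its other probes gave 0.51 and 0.83. The last of these was well above background on 1 of 3 control arrays and 3 of 3 TCE arrays, and its adjusted p was 0.315. The class thus leaned to the higher side, with 5 of 7 above 0 and a median of 0.14.

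The lysine methyltransferases ran from -1.17 to 0.52, which is farther below 0 than any other class. Setd8, now named Kmt5a, which places the single methyl group on lysine 20 of histone H4 and is needed in the cell cycle, had the largest positive difference in the class. Its log2 signal was 10.63, 10.32 and 10.41 in control and 11.05, 11.17 and 10.69 in TCE mice. The log2 fold change was 0.52 with an SE of 0.17 and an adjusted p of 0.189. The second probe of Setd8 gave 0.46 with an adjusted p of 0.253, and there too every TCE mouse was above every control mouse. Suv420h1 and Suv420h2, which add further methyl groups to the same lysine, gave -0.01 and -0.04. The 4 probes of Suv420h1 ran from -0.14 to 0.53.

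Ezh2 and Ezh1 are the alternative catalytic subunits of Polycomb repressive complex 2, which methylates lysine 27 of histone H3, Ezh2 being the one of dividing cells. Ezh2 read 7.04, 7.30 and 7.16 in control and 7.46, 7.62 and 7.41 in TCE mice, without overlap. Its log2 fold change was 0.33 (SE 0.13), with an unadjusted limma p of 0.0367 and an adjusted p of 0.246. Ezh1 read 11.24, 11.26 and 11.41 in control and 11.27, 11.17 and 11.53 in TCE mice, a difference of 0.02 whose sign turned under several other settings. The other detected probe of Ezh1 gave 0.21 with an adjusted p of 0.542. The difference between the 2 paralogs was not tested. Of the demethylases of the same lysine, Kdm6a stood at 0.23 and Kdm6b at -0.31, and in both the groups overlapped.

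Lysine 9 of histone H3, the mark of constitutive and facultative heterochromatin, had 6 methyltransferases on the array, all detected, of which 3 were above 0 and 3 below. Suv39h2, one of the pair that trimethylates this lysine, was lower, at 16.13, 16.07 and 15.99 in control and 15.50, 15.63 and 15.56 in TCE mice. Its log2 fold change of -0.50 (SE 0.11) had an adjusted p of 0.0864. With another background correction (normexp) it was -0.55 with an adjusted p of 0.0461, and with an intensity trend in the variance model the adjusted p was 0.0356. The second Suv39h2 probe stayed near background in all 6 mice. In RefSeq (GRCm38.p6) Suv39h2 overlaps the gene Dclre1c, and the array annotation used here does not tell whether the probe is read by Suv39h2 transcripts alone. Suv39h1, its X-linked partner, differed by 0.14 with wide spread.

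Ehmt1, which with Ehmt2 forms the dimethylase of lysine 9, had the largest difference of the 64. It read 15.09, 15.35 and 14.79 in control and 12.72, 14.36 and 14.66 in TCE mice, and TCE mouse 1 lay far below the others of its group, which spanned 1.94 in all. The log2 fold change was -1.17 with an SE of 0.50, and the adjusted p was 0.294. The other detected probe of Ehmt1 read 10.05, 10.17 and 10.16 in control and 9.90, 10.28 and 10.004 in TCE mice, a difference of -0.07. TCE mouse 1 was thus the lowest mouse with both probes, but lay far below the others with only 1 of the 2. Ehmt2 differed by -0.11. Setdb1 and Setdb2 stood at 0.09 and 0.15.

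Setd4 was lower, with 11.93, 11.71 and 11.22 in control and 10.81, 11.07 and 10.47 in TCE mice. The log2 fold change was -0.83 with an SE of 0.24, and the adjusted p was 0.146. Setd1a, the catalytic subunit of a COMPASS complex that methylates lysine 4 of histone H3 at promoters, read 9.30, 9.32 and 9.20 in control and 9.16, 8.89 and 8.73 in TCE mice. Its log2 fold change was -0.35 with an unadjusted limma p of 0.0479 and an adjusted p of 0.274, while its paralog Setd1b stood at 0.16. Setd2, the trimethylase of lysine 36, stood at 0.09. Setd3, which methylates actin, was at -0.32, and TCE mouse 2 alone was low at 11.40 beside 12.30 and 12.07. The control mice spanned 0.006 in Setd3.

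**Figure D3:**
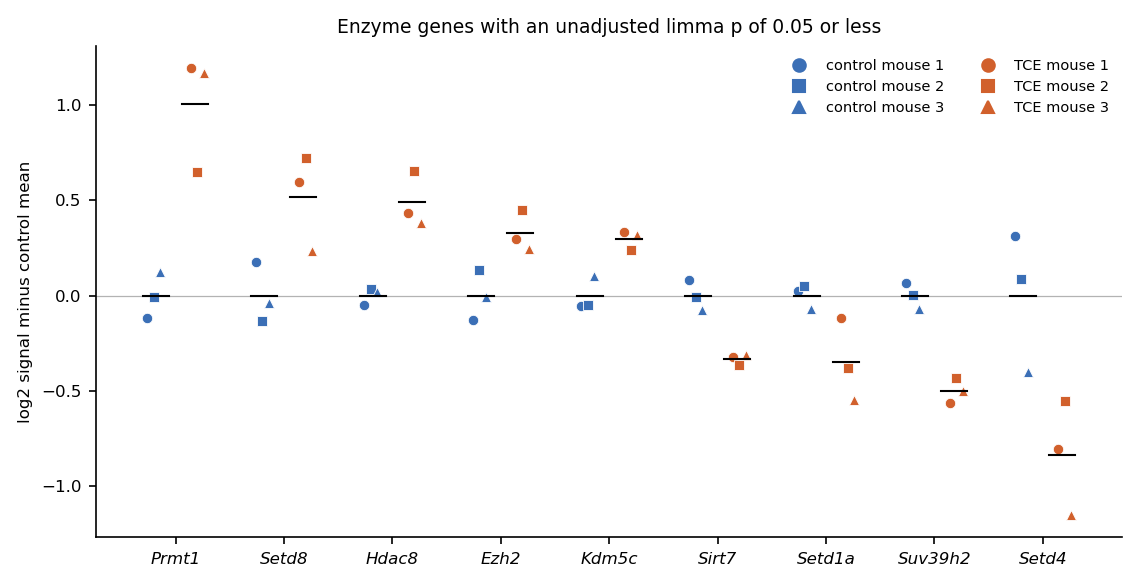
Log2 signal of each mouse minus the control mean of the gene, for the 9 enzyme genes with an unadjusted limma p of 0.05 or less; control mice are blue, TCE mice orange, the mark's shape is the mouse number and bars are group means. In each gene the TCE mice lie on one side of the control mice, and Prmt1 and Setd4 lie farthest from 0.

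Among the demethylases Kdm5c, the X-linked eraser of lysine 4 methylation, had the smallest p. It read 11.02, 11.02 and 11.17 in control and 11.40, 11.31 and 11.39 in TCE mice, without overlap. The log2 fold change was 0.30 (SE 0.11) with an adjusted p of 0.234, and the second probe gave 0.28 with overlapping groups. Kdm1a, the FAD-dependent demethylase of lysine 4, lay above the controls in every TCE mouse, with 9.90, 9.97 and 10.04 in control and 10.15, 10.35 and 10.07 in TCE mice. Its log2 fold change was 0.22 with an adjusted p of 0.406, and under normexp it was -0.01. Kdm2a, which acts on lysine 36, stood at 0.39 with overlap and its second probe at 0.04.

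Kdm5b, another eraser of lysine 4 methylation, stood at -0.27. Control mouse 3 was high in Kdm5b, at 11.89 beside 11.15 and 11.19, and the TCE mice read 11.03, 11.14 and 11.26, so that without control mouse 3 the difference was -0.03. A second Kdm5b probe was lower in every TCE mouse, with a log2 fold change of -0.48 and an adjusted p of 0.303, and a further one gave -0.11. Kdm5a had its outlying mouse on the treated side, with 7.69 in TCE mouse 1 beside 9.08 and 9.15. Of the 5 detected Kdm3 and Kdm4 genes, whose products remove methyl groups from lysine 9, 1 was above 0 and 4 were below, and the groups overlapped in all 5.

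Set mark by mark, and for the enzymes chosen by family name alone, the counts of writers and erasers above 0 were as follows. For lysine 4 of histone H3, 2 of 3 writers and 2 of 5 detected erasers were above 0. For lysine 9, 3 of 6 writers and 1 of 5 detected erasers were. For lysine 27, 2 of 2 writers and 1 of 2 erasers were above 0, and for lysine 36 the single writer and 1 of 2 erasers were. For lysine 20 of histone H4, 1 of 3 writers was, and no eraser of it is among the enzymes. At each of the 4 marks with both, the share above 0 was larger among the writers so chosen. The mean log2 fold change was larger among writers only at lysine 27, at 0.18 beside -0.04 for erasers. It was -0.034 for writers and -0.012 for erasers at lysine 4, and -0.23 and -0.046 at lysine 9. At lysine 36 it was 0.094 for the writer and 0.13 for erasers. Each count rests on 6 or fewer genes, the shares were not tested, and the genes were assigned to marks after their values were seen. Writers outside the family names were not counted. Of these, Mll2 and Mll3, which act on lysine 4, were at -0.12 and -0.31. For lysine 36, Nsd1, Whsc1 and Setmar were at -0.17, -0.05 and -0.04, and Ash1l and Whsc1l1 at 0.31 and 0.04.

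The acetyltransferases differed least. All 7 were detected, 3 above 0 and 4 below, and their log2 fold changes ran from -0.15 to 0.11. None had groups apart and none reached an unadjusted limma p of 0.05, and all 7 intervals lay within a 2-fold change. Kat5, the catalytic subunit of the TIP60 complex, read 10.89, 11.11 and 10.85 in control and 10.69, 10.85 and 10.86 in TCE mice, and its 2 probes gave -0.15 and 0.10. Kat8, which acetylates lysine 16 of histone H4, was at 0.11, and Kat7, the enzyme of the HBO1 complex, was at 0.11 with TCE mouse 2 high at 11.46.

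The zinc-dependent deacetylases leaned to the lower side, with 7 of 9 detected genes below 0 and a median of -0.13. Hdac8, a class I enzyme that deacetylates cohesin, went the other way. It read 5.69, 5.77 and 5.76 in control and 6.17, 6.39 and 6.12 in TCE mice, which is a log2 fold change of 0.49 (SE 0.12) with an adjusted p of 0.113. Under normexp the difference was 0.16 with an adjusted p of 0.438, and the second Hdac8 probe stayed near background in all 6 mice. Hdac1, the class I enzyme of the Sin3, NuRD and CoREST complexes, was below the controls in every TCE mouse, at 11.94, 11.85 and 11.83 in control and 11.57, 11.69 and 11.70 in TCE mice. Its log2 fold change was -0.22 with an adjusted p of 0.352, and its other probes gave -0.13 and -0.19. Hdac3, the enzyme of the NCoR complex that restrains lipid synthesis genes in liver, stood at -0.31 with an adjusted p of 0.478.

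The class IIa deacetylases, which shuttle between cytoplasm and nucleus, had no common direction. Hdac7 stood at -0.30 and Hdac4 at 0.30. Hdac5 was at -0.23, and TCE mouse 2 alone was low at 10.996 beside 12.16 and 12.24, so that without this mouse the difference was 0.16. Hdac6 and Hdac10 of class IIb stood at -0.13 and -0.03, and Hdac11 of class IV at -0.03.

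Sirt7, a nucleolar sirtuin, was the lowest of its class. It read 12.94, 12.85 and 12.78 in control and 12.53, 12.49 and 12.54 in TCE mice, without overlap. The log2 fold change was -0.33 (SE 0.11), with an adjusted p of 0.180. A second probe gave -0.44 with an adjusted p of 0.247 and no overlap, and the remaining one gave 0.24 with overlap. The 3 mitochondrial sirtuins were all above 0. Sirt5, which removes succinyl groups, read 10.86, 11.06 and 11.09 in control and 11.29, 11.11 and 11.54 in TCE mice, which is a log2 fold change of 0.31 with an adjusted p of 0.346. Sirt4 stood at 0.20 without overlap, and its second probe, well above background on 2 of 3 control arrays, at 0.78 with overlap. Sirt3, the main mitochondrial deacetylase, was at 0.01, and TCE mouse 1 was high at 14.28 beside 13.67 and 13.76. Sirt1 was at 0.17, and its TCE mice ran from 9.40 to 10.19 around control values of 9.61 to 9.65. Sirt6 was at 0.13, and its second probe, on 1 of 3 control arrays well above background, at 0.69 with an adjusted p of 0.229.

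Of the 28 enzyme genes with several probes, 22 had more than 1 detected. In 6 of the 22, Kat5, Kat6b, Kdm3b, Setd3, Sirt7 and Suv420h1, the detected probes lay on both sides of 0. No detected probe of any enzyme gene passed the adjusted threshold. Among the probes that do not represent their gene, 4 of 28 had an unadjusted limma p of 0.05 or less (14.3%, beside 17.9% of all detected probes), those of Prmt1, Setd8, Sirt6 and Sirt7. That of Sirt6 was well above background on 1 of 3 control arrays and passed the filter only through the TCE arrays.

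**Figure D4:**
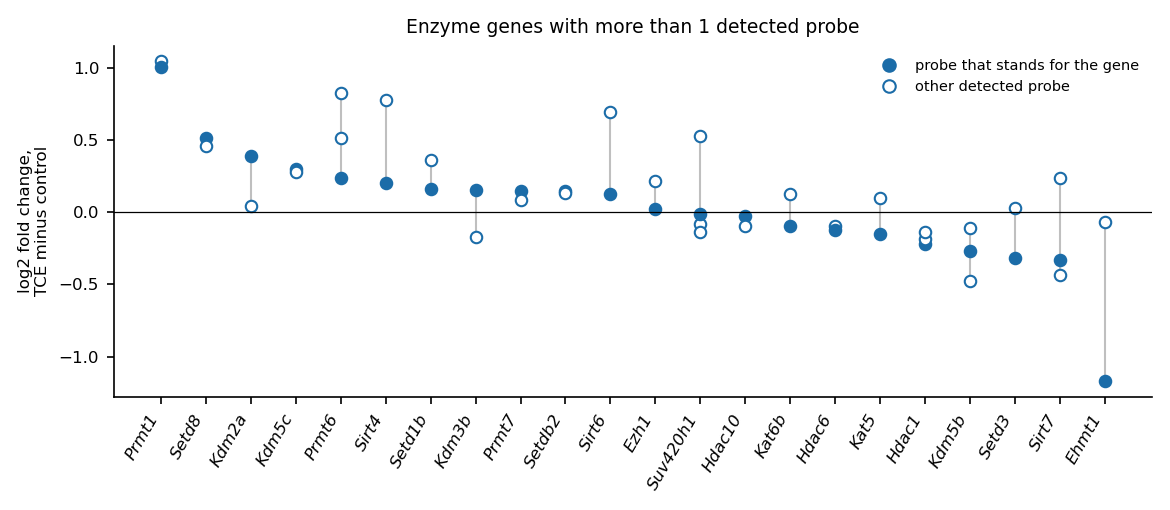
Log2 fold change of TCE minus control for each detected probe of the 22 enzyme genes with more than 1; filled points are the probes that stand for the gene and open points the others, joined by a line per gene. Probes of Prmt1, Setd8 and Kdm5c nearly coincide, while those of Ehmt1 and Sirt7 lie far apart.

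For the comparison of classes, the median log2 fold change was 0.14 for arginine methyltransferases, 0.13 for sirtuins, 0.07 for lysine methyltransferases, -0.01 for acetyltransferases, -0.05 for demethylases and -0.13 for zinc-dependent deacetylases. The count above 0 was 5 of 7, 5 of 7, 11 of 19, 3 of 7, 6 of 15 and 2 of 9 in the same order. At an unadjusted limma p of 0.05 or less there were 5 lysine methyltransferases, 2 higher and 3 lower, or 26.3% of the class beside 19.1% of all detected genes. The arginine methyltransferases (14.3%), demethylases (6.67%) and zinc-dependent deacetylases (11.1%) had 1 higher gene each, the sirtuins 1 lower (14.3%) and the acetyltransferases 0. A class was described by its counts and median and was not tested.

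The class means in single mice put these medians beside the spread. For each gene the control mean was subtracted and the genes of a class were averaged. The arginine methyltransferases gave -0.01, -0.01 and 0.01 in control mice and 0.13, 0.29 and 0.15 in TCE mice, the only one of the 6 classes in which the groups did not overlap. Without Prmt1 the other 6 genes gave -0.05, 0.24 and -0.02 in TCE mice, and the overlap with control values of -0.01 to 0.01 returned. The zinc-dependent deacetylases gave -0.13, 0.04 and -0.07 in TCE mice and -0.02 to 0.03 in control mice. Without Hdac8 all 3 TCE mice were below, at -0.20, -0.04 and -0.12 against -0.02 to 0.03. Leaving out a gene was chosen after the values were seen.

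The order of the classes depended on single mice. The lysine methyltransferases gave -0.16, 0.03 and -0.12 in TCE mice, and TCE mouse 2 was also the highest of the TCE mice in the arginine methyltransferases, demethylases, acetyltransferases and zinc-dependent deacetylases. Without TCE mouse 2 the median of the lysine methyltransferases was -0.04 and that of the arginine methyltransferases 0.01. The median of the sirtuins was -0.02 under normexp. The median of the zinc-dependent deacetylases was lower than 0 without each mouse in turn, from -0.19 to -0.08.

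**Figure D5:**
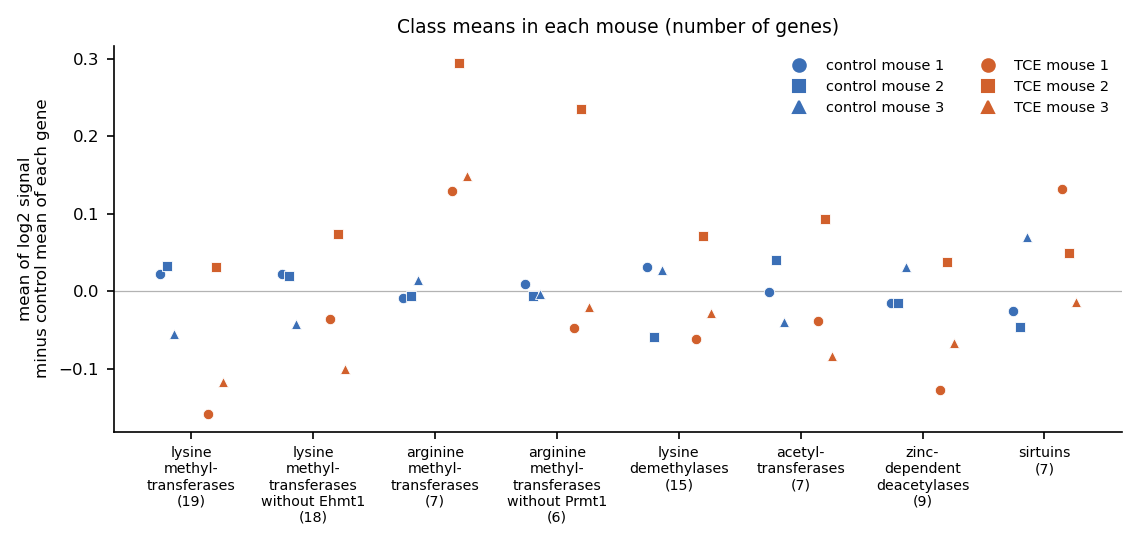
Mean over the genes of a class of the log2 signal minus each gene's control mean, for each of the 3 control (blue) and 3 TCE mice (orange), with the number of genes in parentheses; lysine methyltransferases are also shown without Ehmt1 and arginine methyltransferases without Prmt1. TCE mice lie apart from control mice in the arginine methyltransferases, and overlap them once Prmt1 is left out.

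Mice given TCE also differed among themselves. TCE mouse 2 lay above all 3 control mice in 27 of the 64 genes and below all in 19, TCE mouse 1 in 23 and 20, and TCE mouse 3 in 17 and 23. These counts were not made over all detected genes, so they cannot be called particular to the enzymes. The SD was larger in the TCE group in 40 of the 64, beside 59.2% of all genes. The TCE mice spanned more than 1 on the log2 scale in 3 genes, Ehmt1, Kdm5a and Hdac5, and the control mice in 2, Kdm3b and Suv39h1. Spans too were counted for the enzyme genes alone. By position, 5 of the detected enzyme genes lie on the X chromosome, of which Kdm5c, Kdm6a, Suv39h1 and Hdac8 were above 0 and Hdac6 below.

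Other enzymes and the subunits that work with these enzymes were examined as a wider list of 126 genes, of which 117 were on the array and 111 detected. None passed the adjusted threshold by limma. At an unadjusted limma p of 0.05 or less there were 14 (12.6%, beside 19.1% of all detected genes), and 61 were above 0 and 50 below, with a median of 0.04. A few of the 111 passed the filter through the arrays of 1 group alone, which favours a direction. The genes named next were chosen after their values were seen. Crebbp, an acetyltransferase coactivator outside the Kat nomenclature, read 10.45, 10.43 and 10.82 in control and 11.20, 11.31 and 10.97 in TCE mice, which is a log2 fold change of 0.59 with an adjusted p of 0.137. Hat1, which acetylates new histone H4 before it is deposited on DNA, was at 0.58 with an adjusted p of 0.149. Wdr5, the scaffold shared by COMPASS complexes, was at 0.50 with an adjusted p of 0.123.

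In the opposite direction, Phf8, a demethylase that also acts on lysine 20 of histone H4, was at -0.52 with an adjusted p of 0.203. The chromodomain readers Cbx2 and Cbx5 were at -0.67 and -0.36, with adjusted p values of 0.167 and 0.277. Of the 11 readers detected in both groups 2 were above 0, and 1 more passed the filter through the control arrays alone. Control mouse 3 read low in Cbx2, at 7.72, where the other controls were 8.33 and 8.35. Among the partners, 17 of 22 corepressor subunits of the deacetylases were above 0, all 22 detected in both groups, with a median of 0.16. Of the 22 partners of the acetyltransferases detected in both groups 16 were above 0, and 1 more passed the filter through the TCE arrays alone. The median over all 23 was 0.08. Of the 7 PRC2 partners detected in both groups 3 were above 0, and 1 more passed through the TCE arrays alone.

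Markers of the other cells of the liver were examined on the same arrays. By limma none of the genes of macrophages, T and NK cells, B cells, neutrophils, endothelial, stellate, bile duct and smooth muscle cells passed the adjusted threshold, while among red cell precursors Alas2 did, at -0.91 with an adjusted p of 0.0215. At an unadjusted limma p of 0.05 or less there was 1 of 3 detected T and NK cell genes and 1 of 4 of neutrophils. There was also 1 of 6 of stellate cells and 1 of 2 of smooth muscle, the last detected only in control mice. None was found among 9 macrophage, 1 B cell, 7 endothelial and 3 bile duct genes, beside 19.1% of all detected genes. Below 0 were 8 macrophage, 7 endothelial, 3 bile duct, 3 T and NK cell and 3 red cell precursor genes. So were 4 stellate, 1 neutrophil, 1 smooth muscle and 0 B cell genes, beside 6226 of all 13284 detected genes. The summed signal of 3 detected T and NK cell genes of 8 listed was 16204 to 19857 in control and 5925 to 15791 in TCE mice. Most of this sum came from Cd4, at 13.81, 14.09 and 14.14 in control and 13.25, 12.20 and 13.78 in TCE mice. Cd3e and Nkg7 read far lower, and their groups overlapped. The T and NK cell gene at an unadjusted limma p of 0.05 or less was Cd3e, with a log2 fold change of -0.63 (p 0.0482). By the same test Cd4 was at -0.93 (p 0.0505). Cd3d, Cd3g, Cd8a, Klrb1c and Il2rb were not detected. The part of these cell types in the differences of the enzymes was not tested.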

How the data were processed

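Liver RNA of 3 control and 3 TCE mice was hybridized to 1-colour arrays. Per the labels and file headers, the authors extracted spots with Agilent Feature Extraction 10.7.1.1, and the deposited intensity of each spot is background-corrected. The authors further deposited quantile-normalized log2 group means and raw group means, with annotation on mm9; the 6 flag columns beside them were not used, since their names could not be tied to single mice.

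The intensity was put on the log2 scale, outlier spots were dropped, repeated spots of 1 probe were averaged, and quantile normalization ran over all 55681 non-control probes. Group means lay within 0.01 of the deposited ones for 99.95% of probes. A probe counted on an array if most of its spots were well above background, and 22731 probes were tested by limma 3.58.1 in R 4.3.3 (with data.table version 1.17.8 and statmod 1.5.0; two-sided, group only), with Benjamini-Hochberg adjustment over all of them. Mice were numbered by the labels. Replicates are separate mice, so p-values measure the spread between them; exact permutation of 3 against 3 mice cannot go below a p of 0.1, so limma was used alone. The procedure was tested on simulated data.

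Members and lists were chosen with earlier results of these data known. Named members are those past the threshold, per class the 3 smallest p and the highest mean signal, Ezh1 and Ezh2, and genes with opposed probes of which 1 had a p of 0.05 or less; other names were chosen after the values were seen. Alternatives were another normalization, normexp with an offset of 50, other filters, outliers kept, probe means, blocks for replicate number and slide, each mouse left out, an intensity trend, the deposited group means and other tests; counting any detected probe was added after the data were examined. Promoters were read from RefSeq by symbol, older symbols through synonyms.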

Additional observations from a re-analysis of the deposited data

How the results depend on the processing

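The count of 0 enzyme genes past the adjusted threshold became 1 higher (Prmt1) with the 75th percentile as scaling, with only probes well above background on all 6 arrays, and without TCE mouse 2 (0 to 1 higher over mice left out in turn). It became 1 higher and 1 lower (Suv39h2) with normexp and with an intensity trend. At an unadjusted limma p of 0.05 or less it was 5 higher and 4 lower, by the methods' t-test with p of 0.05 or less and no adjustment 7 and 4, with a 2-fold change as well 1 and 0, and after adjustment 0 and 0. Any detected probe in place of the representative one, chosen after seeing the data, gave 0 and 0. Genes without overlap were 6 higher under normexp, and over mice left out they were 11 to 17 higher and 8 to 13 lower, since fewer mice overlap less. Shares over all detected genes were computed for the main setting alone. The counts under other settings and by the t-test therefore cannot be set beside all genes. The class median of sirtuins was -0.0170 under normexp. Over mice left out the median of lysine methyltransferases was -0.0417 to 0.0483 and that of arginine methyltransferases 0.00538 to 0.152. Kat7, Kdm1a, Ezh1 and Sirt3 turned sign under normexp (-0.00262, -0.00681, -0.125 and -0.147) and Ezh1 with slide as a block (-0.00982). Over mice left out Kat7 was -0.0672 to 0.259, Ezh1 -0.0780 to 0.1001, Sirt3 -0.183 to 0.130 and Hdac5 -0.46 to 0.16. The cause of these shifts was not tested. The other named members kept their direction under every setting run.

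With the replicate number as a block, 0 enzyme genes were higher and 0 lower past the threshold, and Prmt1 had an adjusted p of 0.144. Mice of the same number did not deviate together (correlations of 0.0897, 0.00658 and -0.0916), so the numbers were not taken as a pairing. A probe near background has a less precise signal, and a further probe each of Prmt6, Sirt4 and Sirt6 was well above it on only some control arrays.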
